A study of Mus musculus with 9 samples.

Results

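The core circadian clock genes are the small set of transcription factors and repressors that make up the daily feedback loop of mammalian cells. They were followed here in alpha TC6 cells, a mouse glucagon-producing cell line derived from a tumor of pancreatic alpha cells, after knockdown of an insulin receptor substrate. The set was fixed by name, with earlier results of these data known. It holds 10 genes (Arntl, Clock, Per1, Per2, Per3, Cry1, Cry2, Nr1d1, Nr1d2 and Dbp). Of these, 9 were measured by a probe that carries a single gene symbol, among 22180 genes measured in this way. Per2 was covered only by a probe that also carries another gene's symbol, and no value is given for it. Each of the 9 measured genes had 1 such probe, and a further Cry2 probe with more than 1 symbol was left out.

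RNA was hybridized to Affymetrix Mouse Gene 2.0 ST arrays from 3 groups, with 3 arrays each and 9 in all. alphaIRS1KD cells carried an shRNA against IRS1, alphaIRS2KD cells carried an shRNA against IRS2, and control cells carried a nonsilencing shRNA. IRS1 and IRS2 are adaptor proteins that pass the signal of the activated insulin receptor to kinases inside the cell. All 3 lines were made by lentiviral infection and puromycin selection, and each group is a single stable line, so that the knockdown cannot be told apart from other differences between the lines. The sources used here give neither the hour of harvest nor any step that sets the cells to a common phase of the clock. Nor do they say whether the 3 arrays of a group came from separate cultures, so that p-values measure the spread between these arrays, which may be technical. In bulk RNA, fewer cells that express a gene and less RNA per cell cannot be told apart. The comparisons ask how far the clock genes of these cells differ with IRS1 or IRS2 knockdown, and whether the knockdowns differ from each other.

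In the clock of mammals, ARNTL (also called BMAL1) pairs with CLOCK and activates genes through E-box sequences. Among those genes are the Per and Cry repressors, whose proteins return to the nucleus and shut ARNTL and CLOCK down, and the REV-ERB receptors Nr1d1 and Nr1d2, which repress Arntl. DBP is an output of the loop and activates genes through D-box sequences, Per genes among them. The transcripts of most of these genes rise and fall over the day in clock-bearing tissues, and the islet has such a clock in its alpha and beta cells. The length and phase of this cycle cannot be read from arrays taken at 1 unstated time.

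The sequences through which these proteins act were looked for in the promoter windows of the clock genes, 250 bases before to 50 bases after each start site in RefSeq's annotation of the mouse build GRCm38.p6. Each motif was searched on both strands. There were 13 windows for the 9 measured genes. The E-box CACGTG was found in 2 of the 13 windows, of Per1 and Cry1, and in 7.15% of all 32851 windows. Its variant CACGTT was found in 3 of the 13, of Cry1, Cry2 and Nr1d1, and in 4.68% of all windows. A D-box, spelled TTATGTAA or TTATGCAA, was found in 2 of the 13, of Per1 and Per3, and in 1.66% of all windows. The REV-ERB and ROR core AGGTCA was found in 4 of the 13, of Arntl, Clock, Per1 and Nr1d2, and in 16.3% of all windows. The cAMP response element TGACGTCA, present in 1.79% of all windows, was in none of the 13.

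Of these windows, 3 are printed because they show the 3 kinds of element side by side. The Per1 window holds an E-box at position -166 from the start site, a D-box at -24 and the complement of the REV-ERB and ROR core at -137. The Per3 window holds a D-box at -205 and another at -158. The Arntl window holds the REV-ERB and ROR core at position 32. The motifs are in capitals, each window runs 5′ to 3′ on the strand of its gene, and the positions are chr11:69098699-69098998 on the plus strand for Per1, chr4:151044616-151044915 on the minus strand for Per3 and chr7:113207261-113207560 on the plus strand for Arntl.
Per1: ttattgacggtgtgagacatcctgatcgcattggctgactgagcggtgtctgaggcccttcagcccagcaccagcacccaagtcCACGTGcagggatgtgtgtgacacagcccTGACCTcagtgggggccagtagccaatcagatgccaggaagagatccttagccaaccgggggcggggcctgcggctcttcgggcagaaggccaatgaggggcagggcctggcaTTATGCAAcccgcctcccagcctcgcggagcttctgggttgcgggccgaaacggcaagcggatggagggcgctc
Per3: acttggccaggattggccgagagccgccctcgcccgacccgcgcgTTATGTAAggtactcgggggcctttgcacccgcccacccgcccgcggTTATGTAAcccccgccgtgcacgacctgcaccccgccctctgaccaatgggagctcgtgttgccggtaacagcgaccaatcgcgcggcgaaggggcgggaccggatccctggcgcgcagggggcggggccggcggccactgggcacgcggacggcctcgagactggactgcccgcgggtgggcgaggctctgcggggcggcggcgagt
Arntl: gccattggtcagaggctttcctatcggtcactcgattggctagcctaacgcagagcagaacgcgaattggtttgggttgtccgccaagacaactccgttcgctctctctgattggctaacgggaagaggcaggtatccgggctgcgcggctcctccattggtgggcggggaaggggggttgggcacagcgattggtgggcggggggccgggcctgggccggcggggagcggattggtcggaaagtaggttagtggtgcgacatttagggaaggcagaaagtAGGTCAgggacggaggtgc
These matches describe the letters of the windows, and binding was not measured.

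The values are log2 signals, on which a difference of 1 is a change by a factor of 2, and they are compared only within a probe. Each array's median over all probes lay between 5.03 and 5.11, and all 9 clock genes were brighter than that on every array. As a check of the labels, Irs1 had fallen in alphaIRS1KD against control cells (log2 difference -0.91, SE 0.06, adjusted p = 3.19e-05 from limma), and Irs2 had fallen in alphaIRS2KD against control cells (-0.58, SE 0.06, adjusted p = 0.00173 from limma). A dimmer Irs1 probe, at 5.19 on average, was also lower in alphaIRS1KD than in control cells but did not pass (-0.29, adjusted p = 0.14 from limma over all probes with 1 symbol). The glucagon gene Gcg, which defines alpha cells, stood between 13.21 and 13.25 on all 9 arrays, close to the brightest signal of an array (13.53 to 13.61) and equal on all 3 alphaIRS2KD arrays. It is given here as a sign of strong expression and not as a comparison of the groups. Of 8 alpha-cell markers 4 were measured, and their mean was 11.48 to 11.52 on alphaIRS1KD arrays, 11.57 to 11.63 on alphaIRS2KD arrays and 11.64 to 11.66 on control arrays. Within that list, Ttr fell (log2 difference -0.98, adjusted p = 2.84e-05 from limma) and Irx2 rose (0.39, adjusted p = 0.00197 from limma) in alphaIRS1KD against control cells. Of 22 markers of other cell types 20 were measured, and their mean was 5.36 to 5.43 on alphaIRS1KD arrays, 5.40 to 5.55 on alphaIRS2KD arrays and 5.35 to 5.40 on control arrays. Apart from Rbp4 and Nkx6-1, these markers averaged at most 6.75 over the arrays. The beta-cell marker Iapp had log2 signals of 5.11, 6.35 and 6.44 on alphaIRS2KD arrays and 4.86, 4.61 and 4.86 on control arrays, a difference of 1.19 (adjusted p = 0.125 from limma). Ins2, an insulin gene, had 4.37, 4.88 and 5.09 on alphaIRS2KD arrays and 4.06, 4.23 and 3.90 on control arrays, a difference of 0.72 (adjusted p = 0.088 from limma), and the groups overlapped for neither gene. Rbp4, the retinol carrier listed for delta cells, averaged 11.71 over the arrays and fell in both knockdowns against control cells. The part of these markers in the results was not tested. Over all probes, 8 arrays were most correlated with an array of their own group, but alphaIRS2KD replicate 3 was most correlated with alphaIRS1KD replicate 2 (r = 0.9909). Results that rest on alphaIRS2KD arrays, or on the spread estimated with them, are therefore given without that array where this matters.

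None of the 9 clock genes passed the test in any of the 3 comparisons, at an adjusted p under 0.05 from limma with Benjamini-Hochberg adjustment over all 22180 genes. In alphaIRS1KD against control cells the count was 0 of 9 clock genes, while 6.66% of all genes passed. In alphaIRS2KD against control cells it was 0 of 9, while 1.59% of all genes passed, and in alphaIRS1KD against alphaIRS2KD cells it was 0 of 9, while 4.13% of all genes passed. At an unadjusted p under 0.05 from limma, 2 clock genes stood out in alphaIRS1KD against control cells (Clock and Dbp, both higher, where 17.9% of all genes did), 2 in alphaIRS2KD against control cells (Arntl and Dbp, both higher, where 10.8% did) and 3 in alphaIRS1KD against alphaIRS2KD cells (Clock higher, Arntl and Nr1d1 lower, where 15.8% did).

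The intervals of the differences were also set against a 1.5-fold change. In each comparison, the 95% interval of every one of the 9 clock genes lay within a 1.5-fold change in either direction, which is 0.585 on the log2 scale. The same held for 91.4% of all genes in alphaIRS1KD against control cells, 93.6% in alphaIRS2KD against control cells and 92.5% in alphaIRS1KD against alphaIRS2KD cells. These intervals come from limma and are not adjusted for the number of genes. They rest on the spread between these arrays, which may be technical. For scale, Irs2 itself differed by 1.49-fold in alphaIRS2KD against control cells on these arrays, so that the band is about as wide as that knockdown. Their widest bound was 0.404 in alphaIRS1KD against control cells and 0.396 in alphaIRS2KD against control cells, both for Dbp, and 0.329 in alphaIRS1KD against alphaIRS2KD cells, for Arntl. The median difference of the clock genes was -0.02, 0.04 and 0.01 in these comparisons in turn, beside 0.01, 0.00 and 0.01 over all genes. The median size of the difference, whatever its sign, was 0.07, 0.08 and 0.08 for the clock genes, beside 0.09, 0.07 and 0.08 over all genes. The spread between arrays of a group was 0.0721 at the median of the clock genes (pooled SD on the log2 scale) and 0.1038 at the median of all genes.

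**Figure D1:**
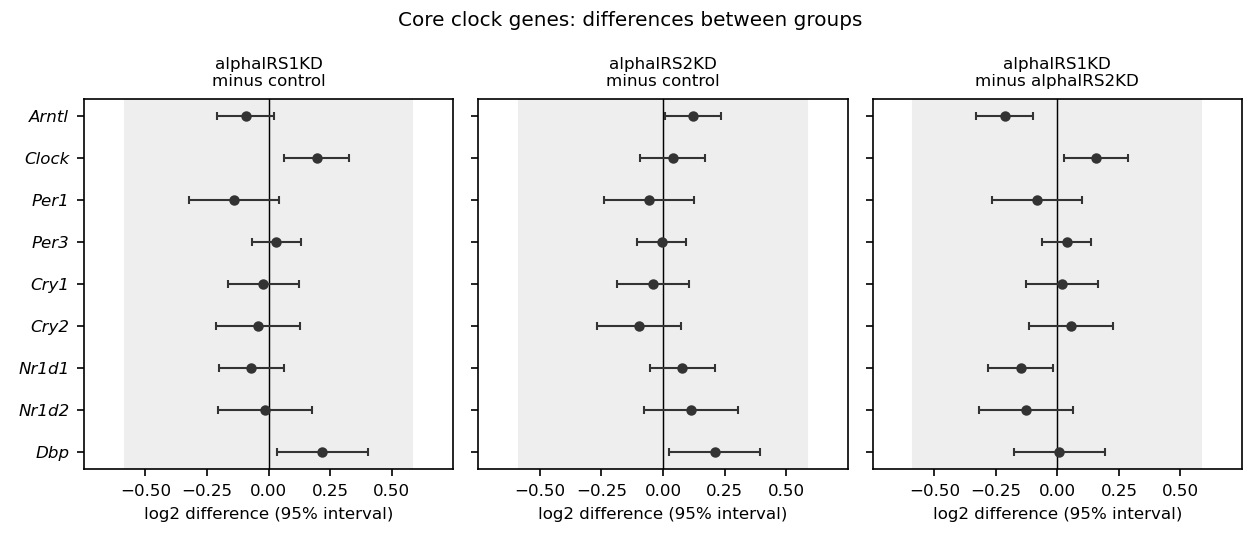
Log2 differences of the 9 measured clock genes with 95% intervals from limma, for alphaIRS1KD minus control, alphaIRS2KD minus control and alphaIRS1KD minus alphaIRS2KD; the shaded band is a change of less than 1.5-fold (0.585) either way. All intervals lie inside the band, as do those of 91.4%, 93.6% and 92.5% of all genes in the 3 comparisons, with the widest bounds for Dbp at 0.404 and 0.396.

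Arntl and Clock, the activators of the loop, had alphaIRS1KD arrays apart from the 6 others, but in opposite directions, Arntl below and Clock above. Such a split was seen in 12.3% of all genes, and neither gene passed the test. Arntl, which encodes the partner of CLOCK, had log2 signals of 8.81, 8.93 and 8.87 on alphaIRS1KD arrays, 9.10, 9.12 and 9.04 on alphaIRS2KD arrays and 8.96, 8.98 and 8.95 on control arrays. The 3 groups did not overlap, with alphaIRS1KD arrays lowest and alphaIRS2KD arrays highest. The mean was 8.87 ± 0.06 in alphaIRS1KD cells, 9.08 ± 0.04 in alphaIRS2KD cells and 8.96 ± 0.01 in control cells (SD, n = 3 each). Arntl missed the threshold in alphaIRS1KD against alphaIRS2KD cells, where its log2 difference was -0.21 (SE 0.05, adjusted p = 0.0529 from limma). The differences from control cells were -0.09 for alphaIRS1KD cells (adjusted p = 0.402 from limma) and 0.12 for alphaIRS2KD cells (adjusted p = 0.423 from limma). Without alphaIRS2KD replicate 3, the lowest of its group, the difference between the knockdowns was -0.24 and passed the test (adjusted p = 0.0445 from limma). It did not pass with any other 1 array left out, and the adjusted p from limma reached 0.163 without alphaIRS1KD replicate 1.

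Clock, which encodes the other activator of the pair, had log2 signals of 11.17, 11.17 and 11.18 on alphaIRS1KD arrays, 11.07, 11.06 and 10.91 on alphaIRS2KD arrays and 10.96, 11.04 and 10.94 on control arrays. All alphaIRS1KD arrays were above the 6 other arrays, while the alphaIRS2KD and control arrays overlapped. The mean was 11.17 ± 0.01 in alphaIRS1KD cells, 11.02 ± 0.09 in alphaIRS2KD cells and 10.98 ± 0.05 in control cells (SD, n = 3 each). The log2 difference of alphaIRS1KD from control cells was 0.20 (SE 0.06, adjusted p = 0.0934 from limma), or 1.15-fold. It was 0.16 from alphaIRS2KD cells (adjusted p = 0.222 from limma), and alphaIRS2KD cells differed from control cells by 0.04 (adjusted p = 0.87 from limma), or by 0.09 without alphaIRS2KD replicate 3 (adjusted p = 0.447 from limma). Without alphaIRS2KD replicate 3, which enters this comparison only through the spread, the difference of 0.20 from control cells passed the test (adjusted p = 0.0356 from limma). It did not pass with any other 1 array left out, and the adjusted p from limma reached 0.253 without control replicate 3. A split of alphaIRS1KD arrays from all 6 others, as for Clock above and Arntl below, was seen in 2 of 9 clock genes and in 12.3% of all genes.

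The repressors of the Per and Cry families differed little between the groups. Per1, a period gene that growth factors and cAMP can induce quickly, had log2 signals of 8.21, 8.16 and 8.06 on alphaIRS1KD arrays, 8.41, 8.15 and 8.12 on alphaIRS2KD arrays and 8.25, 8.29 and 8.31 on control arrays. All alphaIRS1KD arrays lay below all control arrays, and the alphaIRS2KD arrays spanned both. The log2 difference of alphaIRS1KD from control cells was -0.14 (SE 0.08, adjusted p = 0.432 from limma), and that of alphaIRS2KD from control cells was -0.06 (adjusted p = 0.859 from limma). With 1 array left out, this last difference lay between -0.15, without alphaIRS2KD replicate 1, and -0.0039, without alphaIRS2KD replicate 3. Per3, the period gene least needed for the mouse rhythm, lay between 6.30 and 6.35 on alphaIRS1KD arrays, between 6.27 and 6.30 on alphaIRS2KD arrays and between 6.29 and 6.30 on control arrays. It held 1 and the same value on 4 of the 9 arrays.

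Cry1 and Cry2 encode the cryptochromes, which bind and silence the CLOCK and ARNTL pair. Cry1 had log2 signals of 7.73, 7.70 and 7.63 on alphaIRS1KD arrays, 7.77, 7.69 and 7.55 on alphaIRS2KD arrays and 7.68, 7.69 and 7.75 on control arrays, and its 3 groups overlapped. Cry2 had 7.10, 7.09 and 7.09 on alphaIRS1KD arrays, 7.22, 6.97 and 6.93 on alphaIRS2KD arrays and 7.09, 7.13 and 7.19 on control arrays. The alphaIRS2KD arrays of Cry2 held both its highest and its lowest signal. Among the differences of Per3, Cry1 and Cry2 in the 3 comparisons, the one farthest from 0 was that of Cry2 in alphaIRS2KD against control cells (log2 difference -0.10, SE 0.08, adjusted p = 0.715 from limma). With 1 array left out it lay between -0.19, without alphaIRS2KD replicate 1, and -0.04, without alphaIRS2KD replicate 3.

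**Figure D2:**
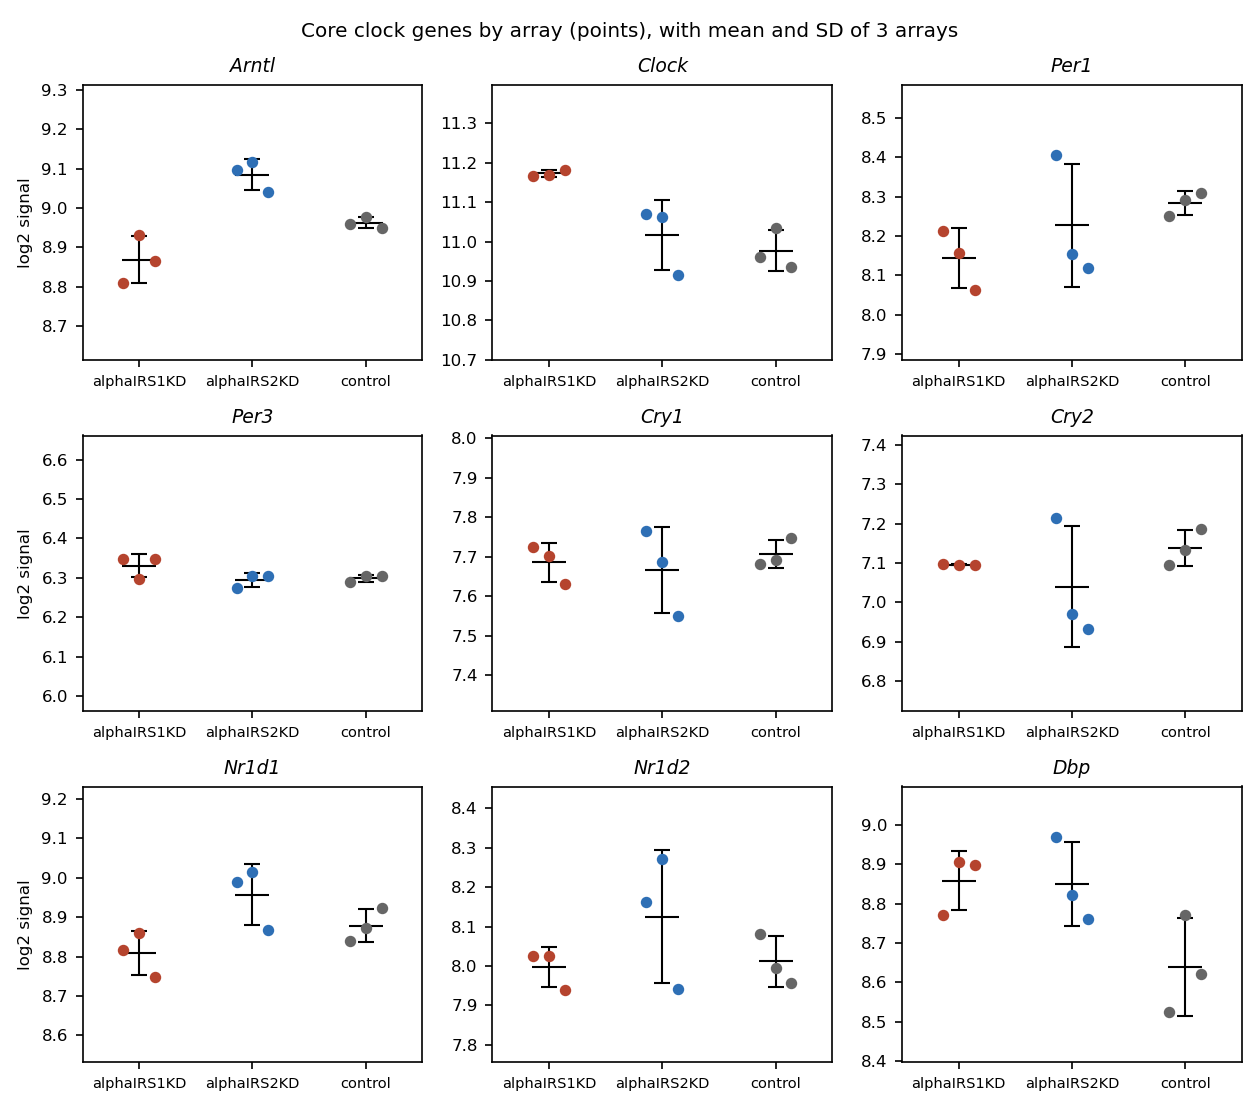
Log2 signal of each of the 9 measured clock genes on every array (points), with the mean and SD of 3 arrays, for alphaIRS1KD, alphaIRS2KD and control cells; every panel spans the same height on the log2 scale. Clock is above all other arrays in alphaIRS1KD cells, Arntl separates all 3 groups, and the alphaIRS2KD points are the most spread in 6 of the 9 genes.

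The REV-ERB receptors, nuclear receptors that bind heme and repress Arntl, were brightest in alphaIRS2KD cells on average. Nr1d1 had log2 signals of 8.82, 8.86 and 8.75 on alphaIRS1KD arrays, 8.99, 9.01 and 8.87 on alphaIRS2KD arrays and 8.84, 8.87 and 8.92 on control arrays. All alphaIRS1KD arrays lay below all alphaIRS2KD arrays, while control arrays overlapped with both. The log2 difference between the knockdowns was -0.15 (SE 0.06, adjusted p = 0.255 from limma), and it was -0.19 without alphaIRS2KD replicate 3 (adjusted p = 0.0942 from limma). Nr1d2 had 8.03, 8.03 and 7.94 on alphaIRS1KD arrays, 8.16, 8.27 and 7.94 on alphaIRS2KD arrays and 8.08, 8.00 and 7.96 on control arrays. Its alphaIRS2KD replicates 1 and 2 were above all other arrays and replicate 3 was among the lowest. The log2 difference of Nr1d2 between the knockdowns was -0.13 (adjusted p = 0.531 from limma), and without that array it was -0.22 (adjusted p = 0.1 from limma).

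Dbp, the D-box activator that follows ARNTL and CLOCK closely in other tissues, had the largest difference from control cells among the clock genes in both knockdowns. Its log2 signals were 8.77, 8.90 and 8.90 on alphaIRS1KD arrays, 8.97, 8.82 and 8.76 on alphaIRS2KD arrays and 8.53, 8.77 and 8.62 on control arrays. Control replicates 1 and 3 were below all knockdown arrays, and control replicate 2 was within their range. The log2 difference from control cells was 0.22 in alphaIRS1KD cells (SE 0.08, adjusted p = 0.189 from limma) and 0.21 in alphaIRS2KD cells (SE 0.08, adjusted p = 0.374 from limma). These comparisons share the control arrays. The knockdowns differed from each other by 0.01 in Dbp, with a 95% interval from -0.18 to 0.19.

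Counted over the set, the arrays of alphaIRS1KD and control cells did not overlap in 3 of 9 clock genes (Clock above, Arntl and Per1 below), beside 25.5% of all genes. Those of alphaIRS2KD and control cells did not overlap in 1 of 9 (Arntl above), beside 13.7% of all genes. Those of alphaIRS1KD and alphaIRS2KD cells did not overlap in 3 of 9 (Clock above, Arntl and Nr1d1 below), beside 18.4% of all genes. The largest SD was that of the alphaIRS2KD arrays in 6 of 9 clock genes, or 66.7%, and in 48.9% of all genes. Equal signals on 2 or more arrays were seen in 4 of 9 clock genes and in 54.9% of all genes.

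For the 3 clock genes with the widest range between group means, the genes with the most similar profile over the 9 arrays were sought among the 22179 other genes, as the smallest root mean square difference between profiles centred on their own mean. For Dbp they were Plscr3 at 0.0523, Nes at 0.0531 and Spred3 at 0.0539 on the log2 scale, where the profile of Dbp itself varied by 0.1323. For Arntl they were Mef2d at 0.0170, Agtpbp1 at 0.0227 and Disp3 at 0.0260, against 0.0944 for Arntl itself. For Clock they were Topbp1 at 0.0172, Casd1 at 0.0235 and Grk3 at 0.0256, against 0.0975 for Clock itself. None of these 9 genes is a clock gene of the set or one of the partner genes described next, and the search carries no test.

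Around the core loop works a wider circle of partners: sister activators, ROR receptors that oppose the REV-ERBs at Arntl, other D-box factors, and the kinases and ubiquitin ligases that set how long PER and CRY proteins last. Of 39 such genes 33 were measured. In alphaIRS1KD against control cells 5 of 33 passed the test, of which 2 rose (Csnk1e and Hlf) and 3 fell (Prkaa2, Rorb and Btrc), beside 6.66% of all genes. In alphaIRS2KD against control cells 1 of 33 rose (Csnk1e) and 0 fell, beside 1.59% of all genes called in either direction. In alphaIRS1KD against alphaIRS2KD cells 0 were higher and 2 of 33 were lower (Prkaa2 and Rorb), beside 4.13% of all genes. The counts of 1 and 2 of 33 are near the share over all genes. The list was drawn up with earlier results of these data known, so that no excess can be read from the 5 of 33. The median difference of the 33 genes was 0.00, 0.01 and 0.01 in these comparisons.

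Prkaa2 differed most. It encodes a catalytic subunit of AMPK, the energy-sensing kinase that marks CRY1 for breakdown. Its log2 signals were 7.71, 7.58 and 7.65 on alphaIRS1KD arrays, 8.70, 8.58 and 8.32 on alphaIRS2KD arrays and 8.15, 8.11 and 8.27 on control arrays. The 3 groups did not overlap, with alphaIRS1KD arrays lowest and alphaIRS2KD arrays highest. The share of all genes that separate the 3 groups in this way was not counted. The log2 difference was -0.89 between alphaIRS1KD and alphaIRS2KD cells (SE 0.09, adjusted p = 0.00105 from limma), or 1.85-fold. It was -0.53 between alphaIRS1KD and control cells (SE 0.09, adjusted p = 0.0101 from limma). Prkaa2 did not pass the test in alphaIRS2KD against control cells (0.36, adjusted p = 0.152 from limma), but did without alphaIRS2KD replicate 3 (0.46, adjusted p = 0.0254 from limma).

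Rorb encodes a receptor of the ROR family, which activates through the same sites at which REV-ERBs repress. Its log2 signals were 9.99, 10.08 and 9.96 on alphaIRS1KD arrays, 10.74, 10.53 and 10.56 on alphaIRS2KD arrays and 10.26, 10.43 and 10.38 on control arrays. The groups did not overlap, with alphaIRS1KD arrays lowest and alphaIRS2KD arrays highest. The log2 difference between alphaIRS1KD and alphaIRS2KD cells was -0.60 (SE 0.07, adjusted p = 0.00214 from limma), or 1.52-fold. That between alphaIRS1KD and control cells was -0.34 (SE 0.07, adjusted p = 0.0238 from limma). The call against control cells was lost without control replicate 2 (-0.31, adjusted p = 0.0948), control replicate 3 (-0.33, 0.0865), alphaIRS1KD replicate 1 (-0.33, 0.084) or alphaIRS1KD replicate 3 (-0.32, 0.09), all from limma. Rorb did not pass the test in alphaIRS2KD against control cells (0.26, SE 0.07, adjusted p = 0.186 from limma).

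Csnk1e was the partner gene that rose in both knockdowns against control cells, which share the control arrays. It encodes casein kinase 1 epsilon, which phosphorylates PER proteins. Its log2 signals were 5.43, 5.53 and 5.43 on alphaIRS1KD arrays, 5.46, 5.49 and 5.52 on alphaIRS2KD arrays and 5.06, 5.00 and 5.09 on control arrays, close to the median signal of an array. The log2 difference from control cells was 0.41 in alphaIRS1KD cells (SE 0.05, adjusted p = 0.00161 from limma) and 0.44 in alphaIRS2KD cells (SE 0.05, adjusted p = 0.00399 from limma). The knockdowns differed from each other by -0.03, with a 95% interval from -0.15 to 0.09.

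Btrc, whose product is part of the ubiquitin ligase that removes phosphorylated PER proteins, had log2 signals of 8.54, 8.61 and 8.63 on alphaIRS1KD arrays, 8.85, 8.86 and 8.80 on alphaIRS2KD arrays and 8.90, 8.85 and 9.00 on control arrays. It was lower in alphaIRS1KD than in control cells by a log2 difference of -0.32 (SE 0.06, adjusted p = 0.00988 from limma). Against alphaIRS2KD cells the difference was -0.24, just outside the threshold (adjusted p = 0.0514 from limma) and just inside it without control replicate 3 (-0.24, adjusted p = 0.0496 from limma). Hlf encodes a D-box activator of the same family as DBP. Its log2 signals were 7.84, 7.78 and 7.69 on alphaIRS1KD arrays, 7.68, 7.58 and 7.58 on alphaIRS2KD arrays and 7.58, 7.36 and 7.29 on control arrays. The log2 difference of Hlf between alphaIRS1KD and control cells was 0.36 (SE 0.08, adjusted p = 0.0316 from limma). The call was lost without control replicate 2 (0.33, adjusted p = 0.113), control replicate 3 (0.30, 0.11), or alphaIRS1KD replicate 1 (0.32, 0.114), 2 (0.35, 0.102) or 3 (0.40, 0.0534), all from limma.

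**Figure D3:**
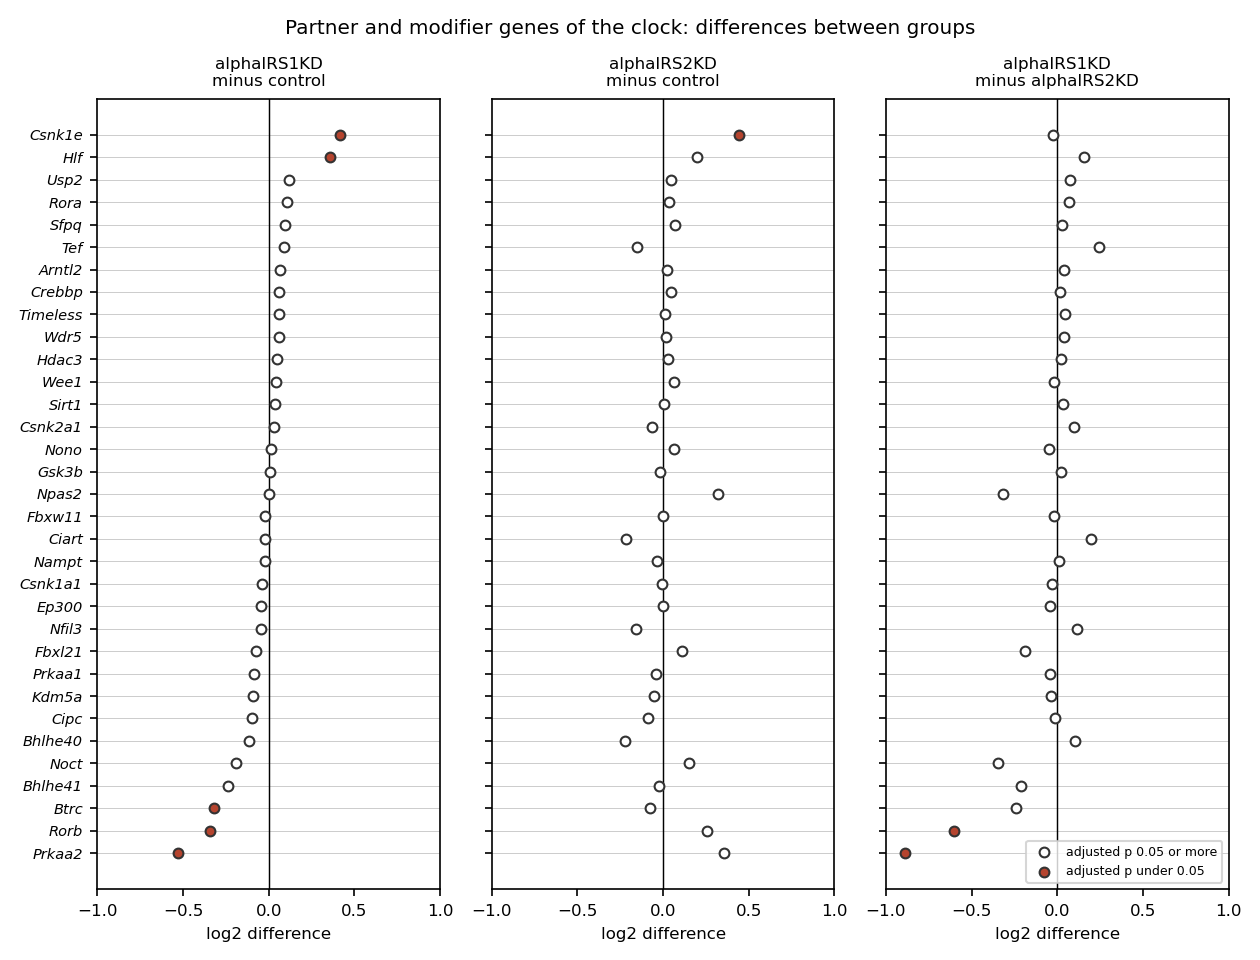
Log2 differences of the 33 measured partner genes for alphaIRS1KD minus control, alphaIRS2KD minus control and alphaIRS1KD minus alphaIRS2KD; filled points passed an adjusted p under 0.05 from limma. Filled points are 5, 1 and 2 in the 3 panels, and Prkaa2 at -0.89 is the farthest from 0.

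**Figure D4:**
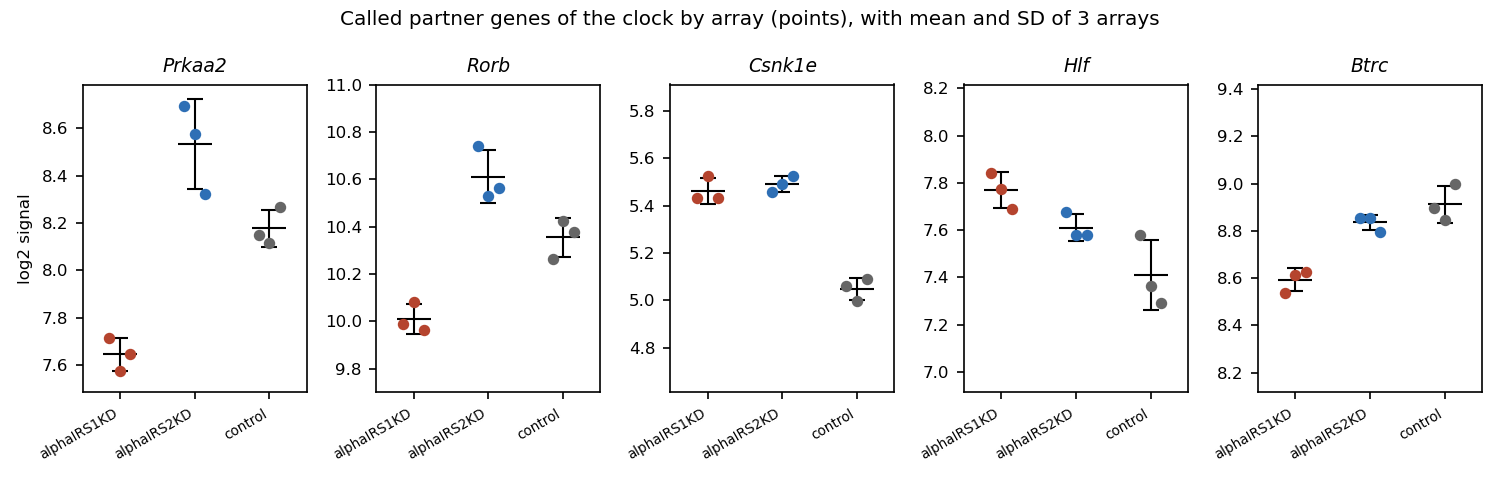
Log2 signal of the 5 partner genes that passed the test in any comparison, on every array (points) with the mean and SD of 3 arrays, for alphaIRS1KD, alphaIRS2KD and control cells; every panel spans the same height on the log2 scale. The arrays of the 3 groups do not overlap for Prkaa2 and Rorb, neither of which passed the test in alphaIRS2KD against control cells. Csnk1e is higher in both knockdowns than in control cells.

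Growth factors and glucocorticoid are signals from outside that can induce Per1. Lists of immediate early genes and of glucocorticoid-responsive genes were therefore read as well. All 11 immediate early genes of the list were measured. In alphaIRS1KD against control cells 1 rose and 3 fell, in alphaIRS2KD against control cells 0 rose and 1 fell, and in alphaIRS1KD against alphaIRS2KD cells 0 were higher and 2 were lower. Over all genes, 6.66%, 1.59% and 4.13% passed in these comparisons. This list and that of glucocorticoid-responsive genes below were also drawn up with earlier results known, so that no excess can be read from their counts. Egr1, a zinc finger factor induced by growth factors through ERK, had log2 signals of 5.50, 5.59 and 5.41 on alphaIRS1KD arrays, close to the median signal of an array. It had 6.48, 6.28 and 6.28 on alphaIRS2KD arrays and 6.46, 6.53 and 6.43 on control arrays. It fell by 0.97 on the log2 scale in alphaIRS1KD against control cells (SE 0.07, adjusted p = 0.000103 from limma) and was lower than in alphaIRS2KD cells (-0.85, adjusted p = 0.00036 from limma). Its difference in alphaIRS2KD against control cells was -0.12 (adjusted p = 0.631 from limma).

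Atf3, a stress-induced factor, had log2 signals of 6.72, 6.66 and 6.48 on alphaIRS1KD arrays, 6.85, 6.86 and 6.76 on alphaIRS2KD arrays and 7.31, 7.23 and 7.20 on control arrays. It fell against control cells in alphaIRS1KD cells (-0.62, adjusted p = 0.001 from limma) and in alphaIRS2KD cells (-0.42, adjusted p = 0.0254 from limma). The call in alphaIRS2KD cells was lost without any 1 of the 3 control or 3 alphaIRS2KD arrays or alphaIRS1KD replicate 2, with an adjusted p up to 0.105 from limma at a difference of -0.38. Sik1 encodes a kinase that limits the induction of Per1 by light in the mouse brain, and its signals were 9.83, 9.80 and 9.83 on alphaIRS1KD arrays, 10.12, 10.06 and 10.04 on alphaIRS2KD arrays and 10.26, 10.15 and 10.21 on control arrays. It was lower in alphaIRS1KD than in control cells (-0.39, adjusted p = 0.00206 from limma) and than in alphaIRS2KD cells (-0.25, adjusted p = 0.0263 from limma). The call between the knockdowns was lost without any 1 of the 3 alphaIRS1KD arrays or alphaIRS2KD replicate 1 or 2, with an adjusted p up to 0.103 from limma at a difference of -0.24.

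Of the immediate early genes that were higher in alphaIRS1KD than in control cells, only Nr4a2, an orphan nuclear receptor, passed the test. Its log2 signals were 8.44, 8.53 and 8.34 on alphaIRS1KD arrays, 8.42, 8.19 and 8.11 on alphaIRS2KD arrays and 8.05, 8.11 and 8.04 on control arrays. Its difference in alphaIRS1KD against control cells was 0.37 (adjusted p = 0.038 from limma), and the call was lost without any 1 of the 3 control or 3 alphaIRS1KD arrays or alphaIRS2KD replicate 2, with an adjusted p up to 0.137 from limma at a difference of 0.32. All 7 glucocorticoid-responsive genes of the list were measured, of which 2 fell in alphaIRS1KD and 1 fell in alphaIRS2KD against control cells, 0 rose, and 0 passed the test between the knockdowns, beside the same 6.66%, 1.59% and 4.13% of all genes. Klf9, a Krüppel-like repressor that glucocorticoid induces, had log2 signals of 8.13, 8.10 and 8.13 on alphaIRS1KD arrays, 8.24, 8.18 and 8.10 on alphaIRS2KD arrays and 8.55, 8.59 and 8.65 on control arrays. It fell against control cells in alphaIRS1KD cells (-0.47, adjusted p = 0.00101 from limma) and in alphaIRS2KD cells (-0.42, adjusted p = 0.00601 from limma). Dusp1, a phosphatase of MAP kinases, differed between alphaIRS1KD and control cells by -0.35 (adjusted p = 0.0441 from limma). That call was lost without any 1 of the 3 control arrays, alphaIRS1KD replicate 2 or 3, or alphaIRS2KD replicate 1 or 2, with an adjusted p up to 0.156 from limma at a difference of -0.31.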

How the data were processed

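RNA of alphaIRS1KD, alphaIRS2KD and control cells was measured on 9 arrays, 3 per group. The authors processed the scans with RMA (version not given in the sources used here), and the deposited log2 signals are background-corrected, normalized between arrays and summarized per probe set by median polish, which can give several arrays an equal signal. No depth applies to arrays, and their number limits the precision. Of 41345 probes, 23521 carry 1 symbol in the platform annotation, 1820 carry several and 16004 carry none, and only those with 1 symbol were used. The brightest probe stood for each of 1082 genes with more than 1, which left 22180 genes. All columns had a sample.

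limma 3.58.1 in R 4.3.3 fitted the 3 groups together, and p-values were adjusted by Benjamini-Hochberg across the 22180 genes, separately for each comparison, with a threshold of 0.05. The script was tested on simulated data. Intervals are at 95%. The replicate numbers were not used as pairs. All 10 members, Irs1 and Irs2, every called partner gene, up to 4 called genes of each of the 2 lists of outside signals and 3 genes of like profile for each of 3 members are named by rule, and other genes are marker checks. The members and lists were chosen with earlier results of these data known. Alternatives were other thresholds, a 1.5-fold filter, the Student test of the methods, array weights, a trended robust prior, quantile normalization, median centring, a block for the replicate number, leaving out the dimmest 30 percent, other treatments of probes, the compared groups alone, and each array left out. Promoter windows are RefSeq's (GRCm38.p6).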

Additional observations from a re-analysis of the deposited data

How the results depend on the processing

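Each result was recomputed under 24 alternative settings. For the 9 clock genes in 3 comparisons this gave 648 values. Of these, 602 kept their direction and side of the threshold, 23 gained a call and 0 lost one. Another 23 changed sign without a call on either side, and 0 reversed. No clock gene was called as reported, so that none could lose a call. An adjusted p under 0.01 and the 1.5-fold filter can only remove calls and could not move a clock gene. The other treatments of probes left the differences of the clock genes unchanged. The 602 therefore include values that could not have changed, and are not a measure of stability. For the other named genes the settings gave 792 values, of which 695 were kept, 22 gained a call, 75 lost one and 0 reversed.

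The count of clock genes called in alphaIRS1KD against control cells, 0 of 9 as reported, was 1 (Clock) with array weights, a trended robust prior, the dimmest 30 percent left out or an adjusted p under 0.1, and 2 at an unadjusted p under 0.05 from limma or from the methods' Student test. In alphaIRS2KD against control cells it was 0 as reported, 1 by the unadjusted Student test and 2 at an unadjusted p under 0.05 from limma. In alphaIRS1KD against alphaIRS2KD cells it was 0 as reported, 1 (Arntl) with array weights, the trended robust prior, quantile normalization, the dimmest 30 percent left out or an adjusted p under 0.1, 2 by the unadjusted Student test and 3 at an unadjusted p under 0.05 from limma. Leaving out 1 array at a time gave 0 to 1, 0 to 0 and 0 to 1 clock genes in the 3 comparisons, the 1 being reached only without alphaIRS2KD replicate 3. The adjusted p from limma ran between 0.0155 and 0.253 for Clock in alphaIRS1KD against control cells and between 0.01 and 0.163 for Arntl in alphaIRS1KD against alphaIRS2KD cells.

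The count of partner genes in alphaIRS1KD against control cells, 5 as reported, was 11 by the unadjusted Student test, 2 by that test with adjustment, 2 at an adjusted p under 0.01, 0 with the 1.5-fold filter and 3 to 5 with 1 array left out. In alphaIRS2KD against control cells, 1 as reported, it was 7 by the unadjusted and 0 by the adjusted Student test, 2 with array weights, 8 at an unadjusted p under 0.05 from limma, 0 with the 1.5-fold filter and 1 to 2 with 1 array left out. In alphaIRS1KD against alphaIRS2KD cells, 2 as reported, it was 6 by the unadjusted and 0 by the adjusted Student test, 4 with array weights, the dimmest 30 percent left out or an adjusted p under 0.1, 7 at an unadjusted p under 0.05 from limma and 2 to 3 with 1 array left out. Apart from the settings that change the threshold or the fit by construction, the cause of these shifts was not tested.

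Arrays with the same replicate number deviated from their group means with correlations of -0.083 to 0.017, and those with different numbers with -0.041 to 0.068. No shared deviation by number was seen, but these correlations cannot tell whether same-numbered arrays were handled together. With the replicate block the clock gene counts were 0, 0 and 0 and the partner gene counts 4, 1 and 2, Rorb being lost against control cells. With 3 arrays of 1 line per group at 1 unstated hour, neither phase nor amplitude of a rhythm could be measured.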
